A study of Mus musculus with 6 samples.

Results

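The CXC chemokine ligands described here are Cxcl9, Cxcl10, Cxcl11, Cxcl1, Cxcl2, Cxcl3, Cxcl12, Cxcl14 and Cxcl16, which are 9 of the 24391 gene rows of the count table. They were chosen by gene symbol, and all 9 were found and passed the filter on low counts. The study sequenced RNA of tumour-associated macrophages (TAMs, macrophages taken from a tumour) from colorectal tumours of BALB/C mice. In the CD11b-high F4/80-low sort gate, 2 libraries came from mice without the chemokine gene Ccl5 (CCL5-/-) and 2 from wild-type (WT) mice. A gate with low CD11b and high F4/80 has 1 library labelled CCL5-/- and 1 labelled WT. CD11b and F4/80 are surface proteins of myeloid cells and macrophages. How the tumours were raised, the age and sex of the mice, how the Ccl5 allele was made, and whether a library is 1 mouse or a pool are not given in the labels, so a p-value here covers only how these libraries vary, and that may be technical variation.

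CXC chemokines are small secreted proteins that bind G-protein-coupled receptors and steer leukocytes along a gradient. Macrophages make Cxcl9, Cxcl10 and Cxcl11 after interferon, and these ligands draw activated T and NK cells through Cxcr3. Cxcl1, Cxcl2 and Cxcl3 follow NF-kB and Toll-like receptor signals and draw neutrophils through Cxcr2. Cxcl12 and Cxcl14 are known mostly as products of stromal and epithelial cells, and Cxcl16 is made as a membrane protein that binds Cxcr6 on T cells.

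The 4 F4/80low libraries differed more by replicate number than by genotype, with 3767 genes called by edgeR between the numbers and 0 between the genotypes. Total counts were 10494542 and 19073767 in CCL5-/- replicates 1 and 2, against 9280635 and 22411342 in WT replicates 1 and 2. The ribosomal RNA precursor Rn45s held 50.03% and 58.4% of the counts in the CCL5-/- and WT replicate 1 libraries and at most 1.38% in the replicate 2 libraries, so between 3857011 and 22222208 counts remained for other genes. Ccl5, the deleted gene, had 35 and 82 reads in CCL5-/- and 255 and 3976 reads in WT, which goes with the F4/80low labels. The macrophage and monocyte markers were detected in every library, 10 of 10, and summed to 5376 and 4833 CPM (reads scaled to the TMM-adjusted total of the library) in CCL5-/- and 4598 and 7978 CPM in WT.

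The F4/80hi values are not a separate experiment. Over 6677 genes with 20 to 400 reads, the ratio of the 2 F4/80hi libraries matched the ratio of the F4/80low replicate 1 libraries within sampling noise, with a median chi-square of 0.334 where independent reads give 0.455. The other 11 ways of matching gave medians of 3.58 to 8.996. The library labelled CCL5-/- in the F4/80hi gate matched WT replicate 1, and the library labelled WT matched CCL5-/- replicate 1. Ccl5 stood at 145 FPKM (fragments mapped, relative to transcript length and library total) in the F4/80hi library labelled CCL5-/- and 15.7 FPKM in the one labelled WT, which goes against these labels, and the titles name the other genotype for each. These libraries were therefore counted once, as the F4/80low replicate 1 libraries, which leaves 4 libraries in all. Since the same libraries are deposited under both gates, a difference between replicate numbers and a difference between gates cannot be told apart. Adgre1, which encodes F4/80, had 53.7 and 35.3 CPM in CCL5-/- replicates 1 and 2 and 35.6 and 51.8 CPM in WT. Itgam, which encodes CD11b, had 580 and 144 CPM in CCL5-/- and 598 and 180 CPM in WT, higher in both replicate 1 libraries.

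The genes lie in 2 groups on mouse chromosome 5 and at 3 other places. In GRCm38 with GENCODE M21 annotation, Cxcl3 (chr5:90786103-90789600), Cxcl1 (chr5:90891241-90893115) and Cxcl2 (chr5:90903871-90905938) lie on the plus strand, with gaps of 101.6 and 10.8 kb. Cxcl9 (chr5:92321347-92328079), Cxcl10 (chr5:92346638-92348889) and Cxcl11 (chr5:92359544-92365485) lie on the minus strand 1415.4 kb further on, with gaps of 18.6 and 10.7 kb. Cxcl12 is at chr6:117168535-117181367, Cxcl14 at chr13:56288643-56296551 and Cxcl16 at chr11:70453983-70459984. The sources used here do not give the strand use in counting, so reads in exons shared with a gene on the other strand are uncertain. Such exons make up 41.7% of the exon length of Cxcl11, shared with the pseudogene Gm2673, 18.3% of that of Cxcl16, shared with Zmynd15, and 5.9% of that of Cxcl10, shared with Art3. Art3 had at most 8 reads in a library, while Zmynd15 had 47 and 206 reads in CCL5-/- and 52 and 338 in WT. Cxcl2 and Cxcl3 share 126 stretches of 50 bases, 5.84% of those in Cxcl2 and 3.51% of those in Cxcl3, so some of their reads could be exchanged.

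The promoters are shown so that the NF-kB and interferon motifs upstream of the ligands can be read, and these motifs do not sort strictly by class. RefSeq promoter sequences (GRCm38.p6) matched 7 of the 9 genes, all but Cxcl11 and Cxcl16. The 3 neutrophil-attracting ligands hold the same 11-base run, printed here within the 120 bases before the start, 5′ to 3′, with matches to the kappa B consensus (the NF-kB motif, searched on both strands, overlapping matches joined) in capitals. Cxcl1 is on the plus strand at chr5:90891125-90891244, Cxcl2 at chr5:90903779-90903898 and Cxcl3 at chr5:90785981-90786100.
Cxcl1: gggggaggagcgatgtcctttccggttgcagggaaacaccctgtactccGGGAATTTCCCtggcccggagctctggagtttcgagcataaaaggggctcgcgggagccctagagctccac
Cxcl2: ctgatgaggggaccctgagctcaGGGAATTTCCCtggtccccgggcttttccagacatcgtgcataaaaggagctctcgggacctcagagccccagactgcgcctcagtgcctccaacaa
Cxcl3: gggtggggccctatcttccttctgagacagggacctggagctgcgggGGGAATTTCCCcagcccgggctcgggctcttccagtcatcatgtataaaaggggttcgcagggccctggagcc

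The run begins at position -71 of Cxcl1, -97 of Cxcl2 and -73 of Cxcl3, counted from the RefSeq start just after the printed bases. These starts differ from the GENCODE gene starts given above. The Cxcl2 sequence ends at chr5:90903898, inside the GENCODE gene that begins at chr5:90903871, so the larger distance in Cxcl2 depends on the start used. A kappa B match stands in 7.25% of all 32851 mouse promoters of 250 bases. Among the interferon-induced ligands, Cxcl10 holds kappa B matches and 1 match to TTTC, any 2 bases and TTTC again, the core of the interferon-stimulated response element (ISRE, searched on both strands), which 2.98% of promoters hold. The first capitals in Cxcl10 are the ISRE core on the other strand, and the others are kappa B. Cxcl9 holds neither, nor TTCNNNGAA, the interferon-gamma activated site (GAS, which reads alike on both strands apart from its NNN) held by 7.02% of promoters. Both are minus-strand genes, and their 250 bases lie at chr5:92348890-92349139 for Cxcl10 and chr5:92328080-92328329 for Cxcl9.
Cxcl10: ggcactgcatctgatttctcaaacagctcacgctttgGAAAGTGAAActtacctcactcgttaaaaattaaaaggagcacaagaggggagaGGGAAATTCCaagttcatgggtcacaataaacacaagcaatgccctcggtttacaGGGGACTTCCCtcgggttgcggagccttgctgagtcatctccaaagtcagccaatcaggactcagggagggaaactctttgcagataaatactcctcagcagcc
Cxcl9: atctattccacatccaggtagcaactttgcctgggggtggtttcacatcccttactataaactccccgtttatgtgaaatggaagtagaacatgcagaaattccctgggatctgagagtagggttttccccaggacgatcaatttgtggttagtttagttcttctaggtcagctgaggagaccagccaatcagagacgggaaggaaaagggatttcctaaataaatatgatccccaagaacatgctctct

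Of the other promoters, Cxcl14 holds 1 ISRE and 1 GAS match and Cxcl12 none of the 3 motifs. A match is a description of these letters, and binding was not measured.

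The comparison of CCL5-/- with WT asks how loss of Ccl5 goes with gene expression in these TAMs, and none of the 9 ligands passed the test. By edgeR's quasi-likelihood test with Benjamini-Hochberg adjustment, 0 of 9 ligands and 0% of the 12710 genes tested had an adjusted p under 0.05. At an unadjusted p under 0.05 stood 41 genes, 11 higher and 30 lower in CCL5-/-, and none was a ligand. DESeq2 called 1 gene, limma-voom 0 and edgeR with the replicate number as a block 10 (0.0787% of the genes tested), again without a ligand. The smallest unadjusted p of a ligand in the edgeR fit without the block was 0.16, for Cxcl14. With the block, edgeR gave 745 genes an unadjusted p under 0.05, and Cxcl14 (0.0176) was the only ligand among them. These unadjusted values thus depend on whether the replicate number is in the fit. Without the block, the median log2 change over the 9 ligands was -0.60, beside -0.0135 over all genes tested. Ccl5 itself, the deleted gene, did not pass over all genes in this edgeR fit (log2 -4.64 ± 0.69, unadjusted p = 0.000762, adjusted p = 1), so a count of 0 does not show that the ligands were unaltered. In the authors' deposited table the ligands had an adjusted p of 0.9999 each, and Ccl5 had 2.65e-05. Differences are also given within pair 1 (the libraries numbered 1) and pair 2 (those numbered 2), as log2 CPM of CCL5-/- minus WT. In bulk RNA, fewer cells of a type and less RNA per cell cannot be told apart.

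**Figure D1:**
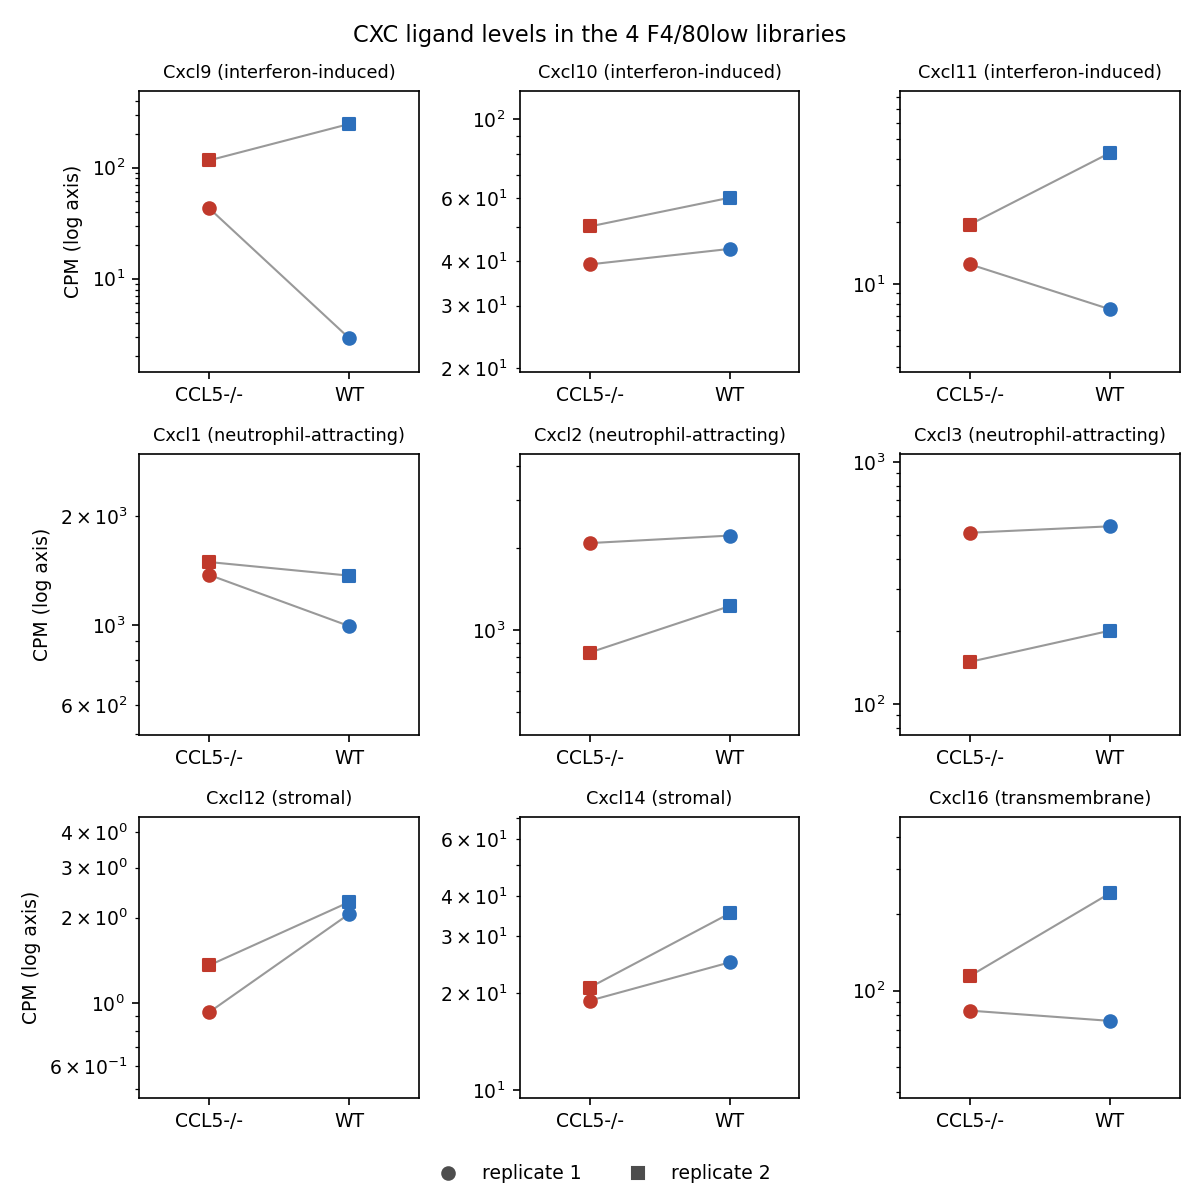
Level of each CXC ligand in CPM (TMM-scaled, log axis) in the 2 CCL5-/- and 2 WT F4/80low libraries, with circles for replicate 1, squares for replicate 2 and a line joining libraries of the same number. For Cxcl9 both CCL5-/- libraries, at 42.9 and 116 CPM, lie between WT replicate 1 at 2.92 CPM and WT replicate 2 at 247 CPM, while Cxcl10 stays between 39.2 and 60.3 CPM.

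Cxcl9, an interferon-gamma-induced ligand of Cxcr3, was the most variable ligand. It had 369 and 3165 reads in CCL5-/- replicates 1 and 2, against 17 and 7503 reads in WT, or 42.9 and 116 CPM in CCL5-/- against 2.92 and 247 CPM in WT. Both CCL5-/- libraries lay between the lowest and the highest WT library, so the groups overlapped. The mean was 79.6 ± 51.9 CPM in CCL5-/- and 125 ± 172 CPM in WT (SD, n = 2 each). The edgeR log2 change was -0.65 ± 1.60 (SE, worked out from the test statistic) with an adjusted p of 1. Within pair 1 Cxcl9 was 14.7-fold higher in CCL5-/- (log2 3.88, 95% counting interval 3.18 to 4.67). In pair 2 it was at 0.471 of the WT level (log2 -1.09, interval -1.15 to -1.03). The counting intervals are exact binomial ones and cover counting error only, not the spread between mice. Leaving out WT replicate 2 turned the fitted change to 4.77, where the lone WT library is assumed to vary like the CCL5-/- libraries.

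Cxcl11, another Cxcr3 ligand, went the same 2 ways at a smaller size. It had 12.4 and 19.4 CPM in CCL5-/-, from 107 and 527 reads, against 7.56 and 42.8 CPM in WT, from 44 and 1303 reads. Again both CCL5-/- libraries lay within the WT range. The log2 difference was 0.72 (0.20 to 1.26) in pair 1 and -1.15 (-1.29 to -0.999) in pair 2, and the edgeR change was -0.68 ± 0.81 with an adjusted p of 1. Without WT replicate 2 the change was 1.08. The RefSeq gene table for GRCm38 lists Cxcl11 as a transcribed pseudogene, and the mice here were BALB/C.

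Cxcl10, which many cell types make after type I or type II interferon, was the steadiest of the 3. It had 39.2 and 50.1 CPM in CCL5-/- and 43.3 and 60.3 CPM in WT. CCL5-/- was the lower library in each pair, but the groups overlapped. The log2 difference was -0.14 (-0.38 to 0.10) in pair 1 and -0.27 (-0.37 to -0.17) in pair 2, and the edgeR change was -0.22 ± 0.38 (adjusted p = 1), or 0.044 without WT replicate 2. The read count ratio of Cxcl9 to Cxcl10 in a library, which needs no scaling between libraries, was 1.09 and 2.32 in CCL5-/- and 0.0675 and 4.09 in WT. The pair of WT libraries thus held the lowest and the highest ratio.

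The 3 neutrophil-attracting ligands differed by at most 1.48-fold between CCL5-/- and WT within a pair. Cxcl1 had 1376 and 1494 CPM in CCL5-/- and 993 and 1370 CPM in WT. The lowest CCL5-/- library stood just above the highest WT library, so the groups did not overlap, as in 8.36% of the genes tested for that direction. Cxcl1 averaged 1435 ± 84.0 CPM in CCL5-/- and 1181 ± 267 CPM in WT (SD, n = 2 each). It was the only ligand higher in CCL5-/- in both pairs, with log2 differences of 0.47 (0.43 to 0.52) and 0.13 (0.11 to 0.15), where 24.6% of all genes were higher in both. Its edgeR change was 0.28 ± 0.51 (adjusted p = 1).

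Cxcl2 had 2085 and 827 CPM in CCL5-/- and 2221 and 1224 CPM in WT. Cxcl3 had 511 and 150 CPM in CCL5-/- and 543 and 201 CPM in WT. For both genes the replicate 1 libraries were high, the replicate 2 libraries low, and the genotypes overlapped. The log2 differences in the 2 pairs were -0.09 and -0.57 for Cxcl2 and -0.09 and -0.43 for Cxcl3, with edgeR changes of -0.24 ± 0.69 and -0.17 ± 0.79 (adjusted p = 1 each). Both signs rested on single libraries: the Cxcl2 change was 0.27 with CCL5-/- replicate 2 left out, 0.26 with WT replicate 1 left out and -1.01 with CCL5-/- replicate 1 left out. The Cxcl3 change under the same omissions was 0.46, 0.72 and -1.26, and omitting WT replicate 2 gave -0.61 for Cxcl2 and -0.72 for Cxcl3. The read ratio of Cxcl3 to Cxcl2 was 0.245 and 0.181 in CCL5-/- and 0.245 and 0.164 in WT, nearly equal within each replicate number. The neutrophil markers, 8 tested of 10 listed, summed to 628 and 305 CPM in CCL5-/- and 3403 and 520 CPM in WT, lower in CCL5-/- in both pairs. Of the markers in the table only Mpo was at 0 in a library, and the part of neutrophil RNA in the levels of these ligands was not tested.

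For both stromal ligands each CCL5-/- library was below each WT library, as in 8.24% of the genes tested, and neither gene passed the test. Cxcl12, the ligand of Cxcr4 and Ackr3, had 8 and 37 reads in CCL5-/- and 12 and 69 reads in WT, or 0.930 and 1.36 CPM in CCL5-/- and 2.06 and 2.27 CPM in WT. Its groups did not overlap, but the counts are small: the log2 difference was -1.15 (-2.64 to 0.26) in pair 1 and -0.74 (-1.36 to -0.14) in pair 2. edgeR gave a log2 change of -0.90 ± 0.61 (adjusted p = 1).

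Cxcl14, a homeostatic ligand of epithelia and fibroblasts, had 18.95 and 20.8 CPM in CCL5-/- and 24.9 and 35.3 CPM in WT. Its highest CCL5-/- library was below its lowest WT library, which 8.24% of the genes tested showed in that direction. It averaged 19.9 ± 1.33 CPM in CCL5-/- and 30.1 ± 7.37 CPM in WT (SD, n = 2 each). The log2 differences were -0.39 (-0.73 to -0.06) and -0.76 (-0.91 to -0.61), and the edgeR change was -0.60 ± 0.37 (unadjusted p = 0.16, adjusted p = 1). The read ratio of Cxcl14 to Cxcl12 was 20.4 and 15.3 in CCL5-/- and 12.1 and 15.6 in WT.

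Markers of stromal cells were present beside these ligands. The fibroblast markers, 9 of 9 tested and none at 0, summed to 723 and 1068 CPM in CCL5-/- and 817 and 916 CPM in WT. Of these markers 2 of 9 were lower in CCL5-/- in both pairs, where 26.9% of all genes were. The median log2 difference of the list was -0.16 in pair 1 and 0.15 in pair 2. Dcn, a collagen-binding proteoglycan, was 1 of those 2, with 21.2 and 89.5 CPM in CCL5-/- and 68.9 and 221 CPM in WT. The endothelial markers, 5 tested of 6 and with Tek at 0 in a library of each genotype, summed to 14.3 and 10.03 CPM in CCL5-/- and 22.7 and 14.5 CPM in WT. The epithelial and tumour markers, 4 tested of 6 and with Cldn7 at 0 in a library of each genotype, summed to 26.9 and 30.2 CPM in CCL5-/- and 32.1 and 17.4 CPM in WT. Their part in the levels of Cxcl12 and Cxcl14 was not tested.

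Cxcl16, a membrane-bound ligand that is shed by Adam10 and also takes up oxidised lipoprotein, had 83.5 and 114 CPM in CCL5-/- and 76.1 and 241 CPM in WT. WT replicate 2 stood high, the other 3 libraries lay close together, and the genotypes overlapped. The log2 difference was 0.13 (-0.04 to 0.31) in pair 1 and -1.08 (-1.14 to -1.02) in pair 2. The edgeR change was -0.68 ± 0.63 (adjusted p = 1), and without WT replicate 2 it was 0.38.

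Set side by side by class, Cxcl9 and Cxcl11 but not Cxcl10 changed sign between the pairs, as did the mean of the interferon-induced ligands. The mean of the neutrophil-attracting ligands also changed sign, though no ligand of that class did. Cxcl1 was higher in CCL5-/- in both pairs, and Cxcl2 and Cxcl3 were lower in both. The stromal ligands were lower in CCL5-/- in both pairs. The mean log2 CPM of Cxcl9, Cxcl10 and Cxcl11 was 4.78 and 5.59 in CCL5-/- and 3.30 and 6.43 in WT, a difference of 1.48 in pair 1 and -0.83 in pair 2. The mean of Cxcl1, Cxcl2 and Cxcl3 was 10.15 and 9.15 in CCL5-/- and 10.05 and 9.44 in WT, with differences of 0.10 and -0.29. The mean of Cxcl12 and Cxcl14 was 2.07 and 2.41 in CCL5-/- and 2.84 and 3.16 in WT, with differences of -0.77 and -0.75. The interferon-induced mean stood below the neutrophil-attracting mean by an amount that depended on the library: the log2 gap was -5.37 and -3.56 in CCL5-/- and -6.75 and -3.02 in WT. No p is given for these means, since the ligands were chosen with results known and each pair has 1 library a side.

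**Figure D2:**
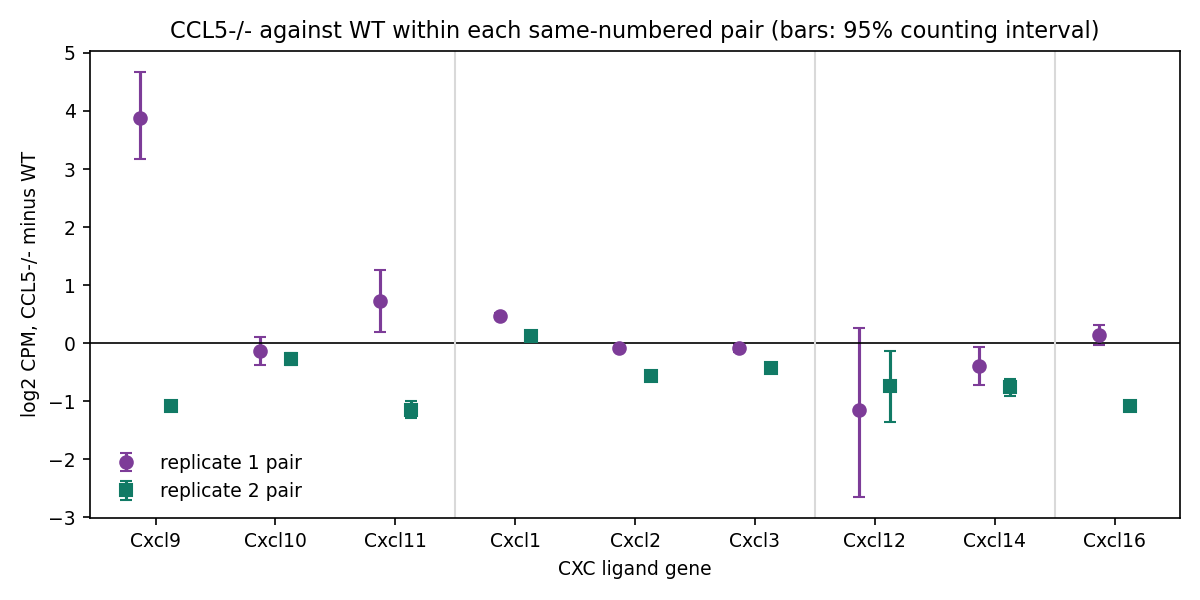
Difference of CCL5-/- minus WT in log2 CPM for each ligand within pair 1 (circles) and pair 2 (squares), with bars for the 95% counting interval and grey lines between ligand classes. Cxcl9, Cxcl11 and Cxcl16 stand above 0 in pair 1 and near -1.1 in pair 2, while Cxcl12 and Cxcl14 are below 0 in both.

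Over the 9 ligands, 5 were lower in CCL5-/- in both pairs, where 26.9% of all genes were. Those were Cxcl10, Cxcl2, Cxcl3, Cxcl12 and Cxcl14. Another 3, Cxcl9, Cxcl11 and Cxcl16, were higher in pair 1 and lower in pair 2, as were 25.4% of all genes. In pair 2 8 of 9 ligands were lower in CCL5-/-, against 52.3% of all genes, and 3 were lower by at least 2-fold, against 5.72% of all genes. In pair 1 1 ligand, Cxcl9, was higher by at least 2-fold, against 3.95% of all genes. The median log2 difference of the ligands was -0.088 in pair 1 and -0.74 in pair 2, beside 0.00019 and -0.0239 over all genes. Being lower in pair 2 was not particular to the ligands. It held for 10 of 10 macrophage and monocyte markers (median -0.63) and 10 of 10 T and NK markers (median -0.86). It also held for 15 of 16 interferon signalling genes, but for only 4 of 9 fibroblast markers.

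The split by replicate number divided the ligands. With replicate 2 set against replicate 1, 4 of 9 ligands had an edgeR adjusted p under 0.05, where 29.6% of all genes did, so the count itself is near that background. Higher in replicate 2 were Cxcl11 (log2 1.62 ± 0.42, adjusted p = 0.0258) and Cxcl16 (1.15 ± 0.33, adjusted p = 0.0274), where 13.1% of all genes were called in this direction. Lower in replicate 2 were Cxcl2 (-1.07 ± 0.26, adjusted p = 0.00947) and Cxcl3 (-1.59 ± 0.24, adjusted p = 0.000542), where 16.5% of all genes were. Cxcl9 had the largest fitted difference, 2.95 ± 1.56, and did not pass (adjusted p = 0.301).

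The libraries of the 2 numbers did not overlap for 6 ligands. Those higher in replicate 2 were Cxcl9, Cxcl10, Cxcl11 and Cxcl16, against a background of 34.2% of all genes, and those lower were Cxcl2 and Cxcl3, against 34%. Cxcl9 was 2.71-fold higher in replicate 2 in CCL5-/- and 84.5-fold higher in WT. Cxcl11 was 1.56-fold higher in CCL5-/- and 5.67-fold higher in WT, and Cxcl16 1.37-fold and 3.16-fold higher. Cxcl3 was 3.42-fold higher in replicate 1 in CCL5-/- and 2.70-fold higher in WT. With 1 library per genotype and number, the difference between these folds was not tested. The calls depended on single libraries, although each omission leaves 1 library on a side, which is then assumed to vary like the other side. Cxcl11 was no longer called without WT replicate 1 or without WT replicate 2, and Cxcl16 was called only with CCL5-/- replicate 2 left out among the 4 omissions. Cxcl2 was lost without WT replicate 1, Cxcl9 was called without CCL5-/- replicate 1 (log2 5.99) and without WT replicate 1 (log2 2.098), and Cxcl3 was called under each omission.

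**Figure D3:**
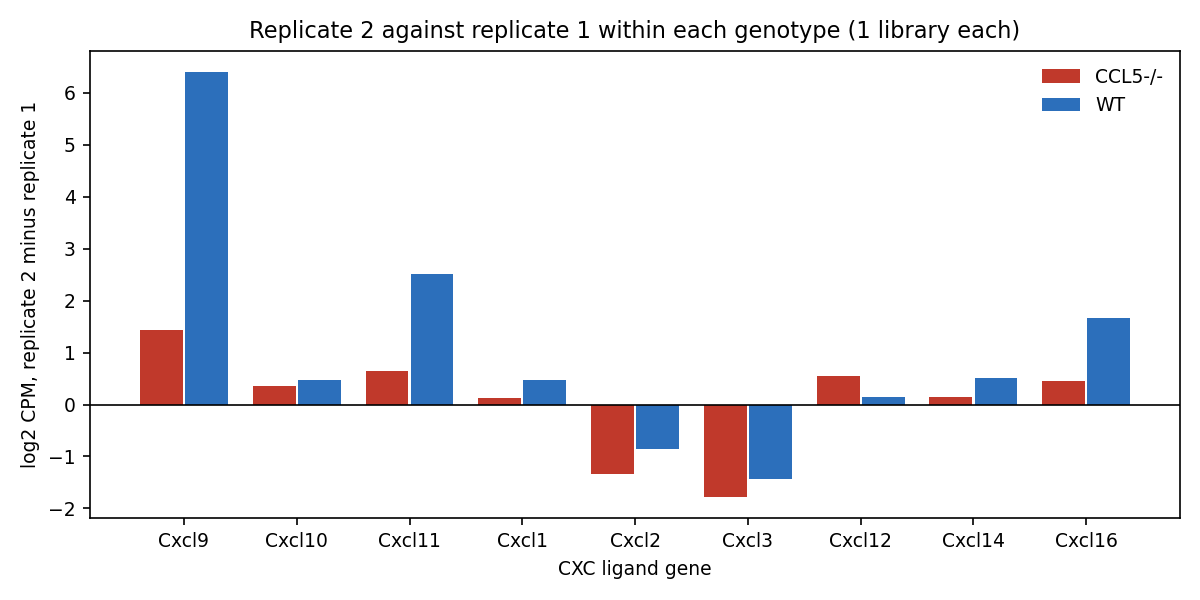
Difference of replicate 2 minus replicate 1 in log2 CPM for each ligand within CCL5-/- (left bar, red) and within WT (right bar, blue), 1 library each, so without error bars. Cxcl2 and Cxcl3 are below 0 in both genotypes and the other 7 ligands above 0, with Cxcl9 reaching 6.40 in WT and 1.44 in CCL5-/-.

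Levels were compared between genes as CPM per kb of annotated exon. For Cxcl1, Cxcl2, Cxcl3 and Cxcl10 the annotated exons join into 1 block over the whole gene. Their length then takes in any introns, so their per-kb levels may be too low beside the other ligands. Cxcl1 and Cxcl2 were the highest ligands in every library: Cxcl1 had 734 and 797 CPM per kb in CCL5-/- and 530 and 731 in WT, and Cxcl2 had 1008 and 400 in CCL5-/- and 1074 and 592 in WT. Cxcl2 led in both replicate 1 libraries and Cxcl1 in both replicate 2 libraries, so their order did not hold beyond the spread. Cxcl3 followed at 146 and 42.8 CPM per kb in CCL5-/- and 155 and 57.5 in WT. Cxcl16 ran from 25.2 to 79.7 CPM per kb, overlapping Cxcl3 above it and Cxcl10 below it, and Cxcl10 ran from 17.4 to 26.8. Cxcl14 ran from 10.4 to 19.3, overlapping Cxcl10 but below Cxcl16 in every library. Cxcl9 spanned the ranges of Cxcl16, Cxcl10 and Cxcl14, from 0.968 to 81.8. It was in place 6 and 4 of the 9 ligands in CCL5-/- and in place 8 and 3 in WT. Cxcl11 had 3.28 and 5.10 CPM per kb in CCL5-/- and 1.99 and 11.3 in WT, and Cxcl12 was last in every library, at 0.114 and 0.166 in CCL5-/- and 0.252 and 0.277 in WT. The FPKM values, which repeat the replicate 1 libraries, put Cxcl10 above Cxcl16, against the per-kb order. Under the CCL5-/- and WT labels Cxcl10 had 65.5 and 56.0 FPKM, Cxcl16 40.4 and 49.3, and Cxcl3 1013 and 872.

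**Figure D4:**
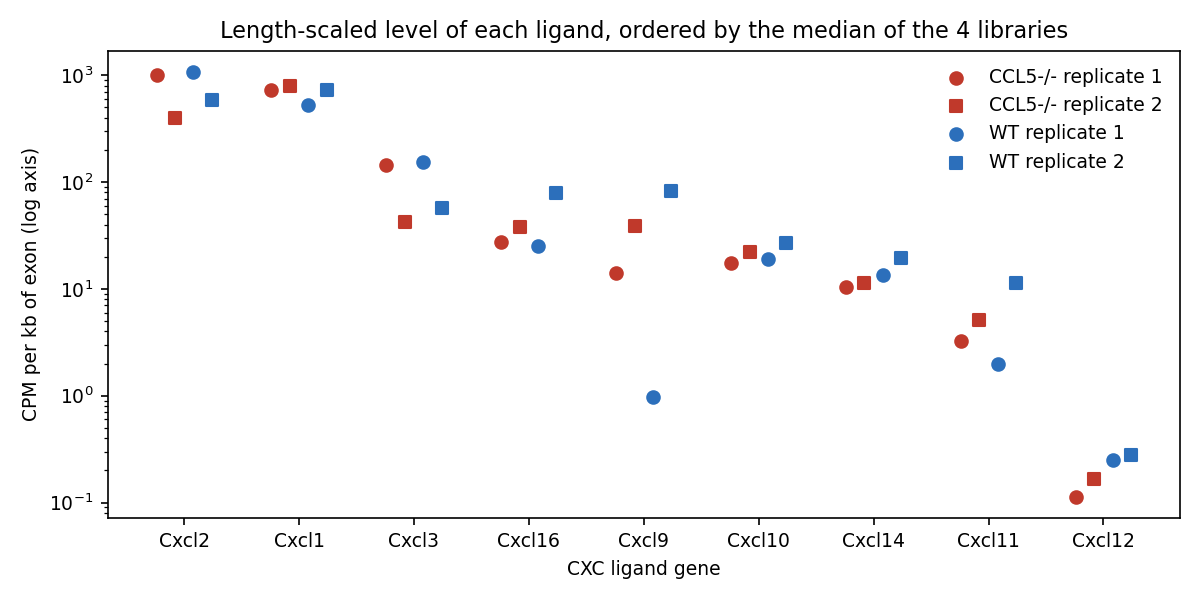
Length-scaled level (CPM per kb of exon, log axis) of the 9 ligands in each F4/80low library, ordered by the median of the 4 libraries, CCL5-/- in red left of WT in blue. Cxcl2 and Cxcl1 lie between 400 and 1074, Cxcl12 stays under 0.278, and Cxcl9 has the widest spread.

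Genes upstream of the interferon-induced ligands were read beside them. Of 16 interferon signalling genes, all tested, 0 passed the edgeR test of CCL5-/- against WT. Among them 8 were higher in pair 1 and lower in pair 2, against 25.4% of all genes, and 15 were lower in pair 2, against 52.3%. The median log2 difference of the 16 genes was -0.004 in pair 1 and -0.46 in pair 2. Ifng, the gene of interferon gamma, had 1.86 and 4.19 CPM in CCL5-/- and 1.72 and 10.7 CPM in WT. Ifnb1, the gene of interferon beta, had 7.79 and 4.08 CPM in CCL5-/- and 7.90 and 17.5 CPM in WT, and Irf7, a transcription factor of the type I response, had 121 and 120 CPM in CCL5-/- and 153 and 201 CPM in WT. WT replicate 2 was the highest library for all 3 genes. Irf1, an interferon-induced transcription factor, is named here after its values were seen. It had 138 and 139 CPM in CCL5-/- and 77.7 and 169 CPM in WT. Like Cxcl9, it was lowest in WT replicate 1 and highest in WT replicate 2.

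Markers of T and NK cells, the cells that make interferon gamma and answer to Cxcr3 ligands, were likewise lowest in WT replicate 1 and highest in WT replicate 2 when summed. All 10 were tested and none was at 0 in a library. They summed to 127 and 113 CPM in CCL5-/- and 78.9 and 213 CPM in WT, while the 3 interferon-induced ligands summed to 94.5 and 186 CPM in CCL5-/- and 53.8 and 350 CPM in WT. Of the markers 9 were higher in CCL5-/- in pair 1 and lower in pair 2, against 25.4% of all genes, and 0 passed the edgeR test. The median log2 difference of the markers was 0.40 in pair 1 and -0.86 in pair 2. As sums, these extremes were not particular to T and NK cells. The macrophage and monocyte markers also summed lowest in WT replicate 1 (4598 CPM) and highest in WT replicate 2 (7978 CPM). Lyz2 was the largest part of that sum, with 3159 and 3033 CPM in CCL5-/- and 2115 and 5351 CPM in WT. It was the only marker of that list lowest in WT replicate 1, so the low sum there rests on this gene. Of the macrophage and monocyte markers, 10 of 10 were lower in CCL5-/- in pair 2. Their median log2 difference was 0.058 in pair 1 and -0.63 in pair 2. Cd3g, a chain of the T cell receptor complex, had 5.93 and 7.75 CPM in CCL5-/- and 4.81 and 24.1 CPM in WT. Some T and NK markers did not follow their sum: Cd3d, Cd3e, Cd4, Cd8a and Prf1 were not lowest in WT replicate 1. Gzmb, the largest part of the T and NK sum, had 62.4 and 62.0 CPM in CCL5-/- and 34.4 and 118 CPM in WT. Lyz2, Gzmb and the markers that did not follow were looked up after the sums were seen. The receptor gene Cxcr3 itself, looked up because it binds these ligands, had 0.814 and 0.661 CPM in CCL5-/- and 0.172 and 0.986 CPM in WT. The part of T and NK cell RNA in the ligand levels was not tested.

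**Figure D5:**
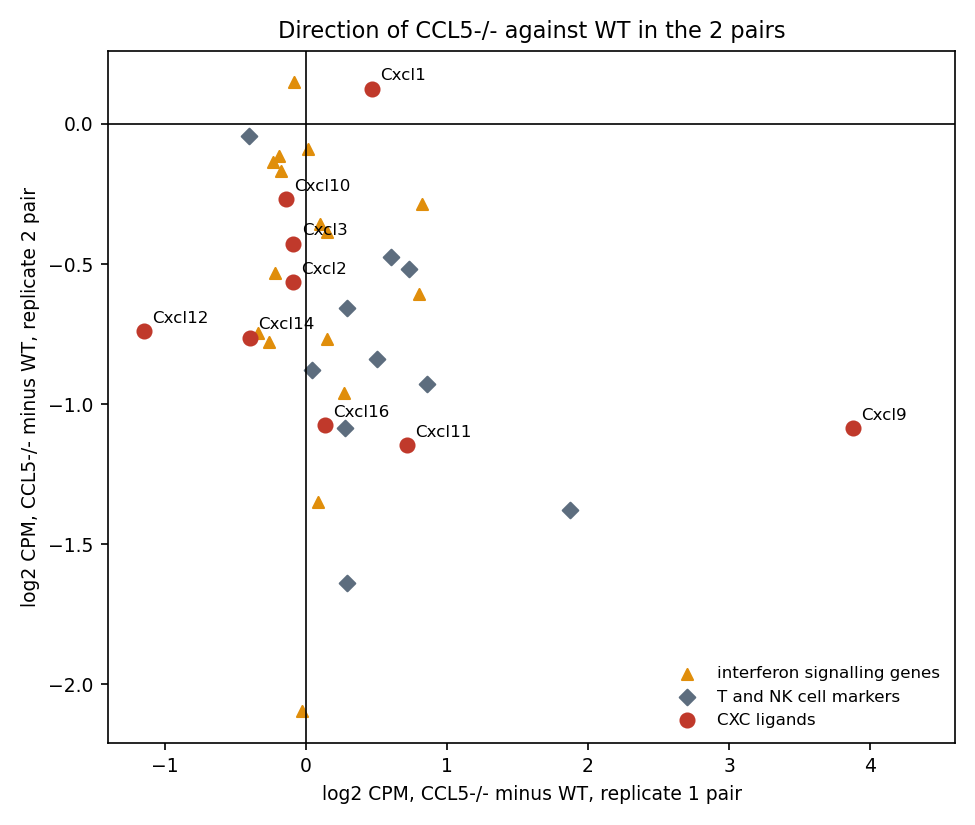
Difference of CCL5-/- minus WT in log2 CPM in pair 1 (x axis) and in pair 2 (y axis) for the 9 CXC ligands (circles), 16 interferon signalling genes (triangles) and 10 T and NK cell markers (diamonds). Points right of and below the axes are higher in CCL5-/- in pair 1 and lower in pair 2, which holds for 9 of 10 markers, 8 of 16 signalling genes, Cxcl9, Cxcl11 and Cxcl16.

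Genes of the NF-kB pathway, on which Cxcl1, Cxcl2 and Cxcl3 depend, were read beside them. Of 16 genes tested, 0 passed the test of CCL5-/- against WT. In both pairs 8 were lower in CCL5-/-, against 26.9% of all genes, and 3 were higher in pair 1 and lower in pair 2, against 25.4%. The median log2 difference of the 16 genes was -0.18 in pair 1 and -0.11 in pair 2. Tnf, an NF-kB-driven cytokine, had 238 and 182 CPM in CCL5-/- and 268 and 316 CPM in WT. Il1b, another, had 2118 and 1848 CPM in CCL5-/- and 2222 and 3269 CPM in WT. Nfkbid, an atypical inhibitor of NF-kB, had 18.4 and 21.3 CPM in CCL5-/- and 25.6 and 25.3 CPM in WT. Between replicate numbers 5 of the 16 were called higher in replicate 2, where 13.1% of all genes were, and 3 lower, where 16.5% were.

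The FPKM table repeats pair 1 under other labels, so its values add no replicate. Cxcl9 had 2.67 FPKM in the F4/80hi library labelled CCL5-/- and 23.1 FPKM in the one labelled WT, a difference of -2.71 in log2(FPKM + 1). By the characteristics field 0 of 9 ligands had the sign of the F4/80low replicate 1 pair, and by the title 9 of 9 had it. Cxcl1 stood at 2176 FPKM under the CCL5-/- label and at 2985 FPKM under the WT label. Cxcl10 stood at 65.5 FPKM under the CCL5-/- label and at 56.0 FPKM under the WT label. Depth behind FPKM values is unknown and no test was possible with 1 library a side.

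For 1 ligand of each of 3 classes, the one with the highest edgeR average log2 CPM over the 4 libraries (Cxcl9, Cxcl2 and Cxcl14), the genes with the most similar pattern were sought among 8590 genes, by the root mean square difference of centred log2 CPM over the 4 libraries. For Cxcl9 these were Iigp1 (0.764), an interferon-induced GTPase, H2-Q2 (0.911), an MHC class I gene whose reads may be shared with close relatives, and Ccl8 (1.03), a CC chemokine. Iigp1 had 23.4 and 33.4 CPM in CCL5-/- and 2.75 and 62.0 CPM in WT, and Ccl8 had 71.1 and 116 CPM in CCL5-/- and 13.7 and 171 CPM in WT. For Cxcl2 they were Mdm4 (0.0316), Plek (0.0338) and B4galt6 (0.036), and for Cxcl14 Mapkapk3 (0.0226), Srek1 (0.0278) and Rinl (0.0518). The nearest genes lay much farther from Cxcl9 than from Cxcl2 or Cxcl14, but this measure is not scaled to how much a gene varies. The highest library was 84.5-fold above the lowest for Cxcl9, 2.68-fold for Cxcl2 and 1.87-fold for Cxcl14. The distances therefore cannot be compared between these ligands, and with 4 libraries such likeness is a description only. Within single libraries the per-kb order differed, with Cxcl9 below Cxcl10 in both replicate 1 libraries and Cxcl2 below Cxcl1 in both replicate 2 libraries.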

How the data were processed

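RNA of sorted TAMs was sequenced in 6 deposited libraries. Per the submitters' processing notes, bcl2fastq 2.17.1.14, TopHat2 2.1.1, Cufflinks 2.2.1, FastQC, cutadapt, STAR, HTSeq and DESeq2 were used. The sources used here do not say which of them, or which build, belongs to which table. The authors deposited whole-number read counts per gene for the F4/80low libraries. The authors' deposited comparison table holds a normalised signal (counts divided by size factors), log2 fold changes with errors, a score (test statistic), p-values and adjusted p-values. The authors deposited FPKM values with bounds for the F4/80hi libraries. The loci of that table overlapped the GRCm38 gene body for 99.06% of 20911 shared symbols.

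The quasi-likelihood test of edgeR 4.0.16 (R 4.3.3) was run on the counts, two-sided, with the filter filterByExpr, TMM scaling, robust dispersions and Benjamini-Hochberg adjustment over all genes tested (threshold 0.05). CPM are TMM-scaled with Rn45s kept. The SE beside an edgeR change is the absolute log2 change divided by the square root of the F statistic of the test. Pair differences are log2 ratios of CPM with exact 95% binomial intervals. FPKM were compared as log2(FPKM + 1). DESeq2 1.42.0, limma 3.58.1 (voom), other normalisation and filter settings, a replicate block and omission of each library were alternatives. The fit was checked on simulated counts without a split by replicate number, so the check does not show how the fit behaves with the split in these libraries. Groups follow the characteristics field, and replicate numbers follow the titles. The text names the 9 ligands, Ccl5 and Rn45s, up to 3 genes of each list by unadjusted p plus any that passed with or without the replicate block, the 3 genes most like the leading ligand of 3 classes, and a few others said to be chosen for their role or after their values were seen. The ligands, lists and tests were chosen with earlier results of these data known.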

Additional observations from a re-analysis of the deposited data

How the results depend on the processing

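The test of CCL5-/- against WT called 0 of 9 ligands under every setting run. Over all genes it called 0, and 10 with the replicate block, 1 with DESeq2, 23 with DESeq2 and the block, 31 with limma-voom and the block (both combinations chosen after seeing the data) and 0 to 4 with each library left out. Same-numbered libraries deviated together (correlation of deviations from the group means 0.727), but with 2 pairs the labels give only a shared number. Under the block, which called Camp and Dcn among the listed markers, Cxcl14 had the smallest ligand p (unadjusted 0.0176, edgeR adjusted 0.656), and no ligand call changed. The Cxcl9 change turned positive with the block (0.82), with limma-voom (1.15), with DESeq2 and the block (1.40) and with limma-voom and the block (0.34), and ran from -1.61 to 4.77 with each library left out. Under these omissions the change also turned sign for Cxcl10 (-0.41 to 0.044), Cxcl11 (-1.40 to 1.08), Cxcl16 (-1.27 to 0.38), Cxcl2 (-1.01 to 0.27) and Cxcl3 (-1.26 to 0.72). Cxcl1, Cxcl12 and Cxcl14 kept their sign. The mean change of the interferon-induced ligands minus that of the neutrophil-attracting ligands was -0.47, 0.17 with the block, and -1.49 to 2.23 over the omissions, the highest without WT replicate 2. Replicate 2 against replicate 1 called 3767 genes, and 2067 to 3215 over the omissions, where Cxcl12 ran from -0.14 to 0.98 and Cxcl14 from -0.066 to 0.70. The causes of these shifts were not tested. Depth limits Cxcl12, with 8 to 69 reads, and Cxcl9 in WT replicate 1, with 17.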

Other observations

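The other mouse CXC ligands in the count table were Cxcl5, Pf4 and Ppbp, which were tested, and Cxcl13, Cxcl15 and Cxcl17, which were at 0 in at least 1 library and were not. None of the 3 passed the edgeR test of CCL5-/- against WT. Each was higher in CCL5-/- in pair 1 and lower in pair 2, as were 25.4% of all genes. Cxcl5, a neutrophil-attracting ligand, had 10.4 and 5.29 CPM in CCL5-/- and 4.81 and 8.19 CPM in WT. Pf4, known as platelet factor and also made by macrophages, had 162 and 99.2 CPM in CCL5-/- and 147 and 116.7 CPM in WT.

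The receptors were mostly low, and 6 of 8 were tested, with 0 passing. Cxcr4, the receptor of Cxcl12, had 28.3 and 17.8 CPM in CCL5-/- and 44.3 and 31.7 CPM in WT. It was lower in CCL5-/- in both pairs, like its ligand, and the groups did not overlap, as in 8.24% of the genes tested for that direction (log2 -0.72 ± 0.42, edgeR adjusted p = 1). Ackr3, the scavenging receptor of Cxcl12, had 82.4 and 48.2 CPM in CCL5-/- and 63.9 and 34.3 CPM in WT. Cxcr2, the receptor of Cxcl1, Cxcl2 and Cxcl3 and also a neutrophil marker, had 8.83 and 1.80 CPM in CCL5-/- and 32.0 and 1.71 CPM in WT, so WT replicate 1 stood alone.

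Proteases that cut CXC ligands were lower in CCL5-/- in pair 2 for 8 of 8 tested of 9 listed, and 0 passed the edgeR test. In pair 2 52.3% of all genes were lower, as were 10 of 10 macrophage and monocyte markers and 10 of 10 T and NK markers. Mmp8, a neutrophil collagenase, had 38.01 and 3.27 CPM in CCL5-/- and 115 and 6.44 CPM in WT. Dpp4, which trims and inactivates Cxcl10, had 2.67 and 1.95 CPM in CCL5-/- and 3.61 and 3.55 CPM in WT. Of 6 regulators of the stability of short-lived mRNAs, 3 were called lower in replicate 2, where 16.5% of all genes were, 0 were called higher, and the other 3 did not pass. The 3 called were Zfp36l2 (log2 -1.12, edgeR adjusted p = 0.00237), Zfp36l1 (-1.25, adjusted p = 0.00116) and Zfp36 (-0.81, adjusted p = 0.0161). Dendritic cell markers, 5 tested of 6, summed to 45.8 and 54.9 CPM in CCL5-/- and 72.7 and 66.1 CPM in WT.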
